A study of Mus musculus with 19 samples.

Results

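The regions described here are 10 kb windows of the mouse genome that carried H3K9me2 without strong H3K9me3 in cultured embryonic stem cells (ESCs), which are pluripotent. The members were chosen by measured values of the day 4 control libraries. For each window on chromosomes 1 to 19, the deposited log2 values of its 2 kb tiles were averaged, and a window was kept where the Input was at least -1.5, H3K9me2 was at least 1 above the Input and H3K9me3 was less than 1 above it. These limits left 3709 of 222268 autosomal windows that met the Input limit (called eligible windows below), or 1.67%, and 265502 windows covered the whole genome. Together the members spanned 37.1 Mb.

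Dimethylation of lysine 9 of histone H3 is laid down mainly by the enzyme pair G9a and GLP (*Ehmt2* and *Ehmt1*), covers broad domains and is linked to silent chromatin. H3K9me3, the trimethylated form, is written by SETDB1 and the SUV39H enzymes and marks retrotransposons and pericentric repeats. DNMT1 copies DNA methylation after replication, and its partner UHRF1 binds both hemimethylated DNA and methylated H3K9, so both layers of silencing meet at the same protein. H3K27me3 is the mark of Polycomb repression.

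ChIP-seq of H3K9me2, H3K9me3 and H3K27me3 had been done on ESCs at day 4 and day 8. Control cells were labelled Wildtype and knockout cells Dnmt1 KO (cKO here), both with background strain E14, whereas the methods of the study describe Dnmt1 loxP/loxP ESCs of strain C57BL/6 in which treatment with 4OHT deletes the gene; how these names fit together was not settled here. For every mark there were 2 libraries per genotype at day 8 but 1 per genotype at day 4, and 1 Input library of chromatin without immunoprecipitation came from control cells. Whether the libraries numbered 1 and 2 came from separate cultures is not given in the sources used here, so the spread between them may be technical.

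ChIP libraries held 14627174 to 26181489 reads in tiles, except the day 8 H3K9me3 library of cKO replicate 1 with 5669098. Among the 24 tiles of *Dnmt1*, the one with the lowest cKO to control ratio at day 8, picked for that loss, lay on chromosome 9 from 20744001 to 20746000. There the 6 day 8 control libraries held 49 reads together and the 6 day 8 cKO libraries 1, against 23 and 9 at day 4, and the other tiles of the gene held 970 and 1143 at day 8. H3K27me3 over the windows holding the gene starts was 0.58 to 4.42 for the 5 developmental genes fixed as a check of the cell type, with *Gata4* lowest, and -2.83 to -2.09 for *Pou5f1*, *Nanog* and *Zfp42* (means of the 3 control libraries). *Sox2*, *Klf4* and *Esrrb*, also pluripotency genes, did not follow this pattern and lay between 1.02 and 1.21. The H3K9me2 library of cKO replicate 2 at day 8 followed the Input more closely than the other H3K9me2 libraries: its correlation with the Input across eligible windows, which share base composition, was 0.443 against 0.193 to 0.249. In bulk chromatin, fewer cells with a mark and less of it per cell cannot be told apart. Values without these libraries are given beside the results below.

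As examples, 300 bases are printed from the middle of the tile with the most day 8 control H3K9me2 reads in each of 5 member windows. They come from NCBIM37, plus strand, with CpG sites, the target of DNMT1, in capitals. The first 4 are the most self-similar stretches among the 8 windows with the highest H3K9me2 in day 8 control cells, so they do not stand for all members, and the last is from the window in *Cacna1c* where H3K9me2 was lower in both cKO libraries than in both controls.
Ahnak, coding exon, chr19:9088851-9089150: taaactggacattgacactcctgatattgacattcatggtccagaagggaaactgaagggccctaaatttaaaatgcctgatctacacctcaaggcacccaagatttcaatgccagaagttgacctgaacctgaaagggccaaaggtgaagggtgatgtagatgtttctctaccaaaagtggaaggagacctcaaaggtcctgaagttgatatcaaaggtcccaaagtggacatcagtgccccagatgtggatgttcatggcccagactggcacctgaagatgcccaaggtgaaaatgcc
Muc4, coding exon, chr16:32750851-32751150: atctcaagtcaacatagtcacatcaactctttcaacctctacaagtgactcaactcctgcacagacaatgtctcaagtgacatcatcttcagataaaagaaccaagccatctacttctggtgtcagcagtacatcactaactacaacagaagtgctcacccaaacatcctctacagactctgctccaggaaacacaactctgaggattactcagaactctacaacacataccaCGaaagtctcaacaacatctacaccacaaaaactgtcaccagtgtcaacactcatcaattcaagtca
Intergenic, nearest gene Gm17613, chr14:121092851-121093150: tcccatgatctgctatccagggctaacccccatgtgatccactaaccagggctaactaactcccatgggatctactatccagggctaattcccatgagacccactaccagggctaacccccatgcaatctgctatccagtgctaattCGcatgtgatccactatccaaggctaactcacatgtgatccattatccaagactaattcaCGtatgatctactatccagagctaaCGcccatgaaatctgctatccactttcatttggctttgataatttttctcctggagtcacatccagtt
Intergenic, nearest gene Stk31, chr6:49422851-49423150: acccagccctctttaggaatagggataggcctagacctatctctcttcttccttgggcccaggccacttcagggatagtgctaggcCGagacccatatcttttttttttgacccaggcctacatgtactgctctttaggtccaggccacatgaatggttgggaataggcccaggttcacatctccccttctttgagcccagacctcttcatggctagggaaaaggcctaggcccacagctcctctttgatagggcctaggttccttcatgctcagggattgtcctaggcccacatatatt
Cacna1c, intron, chr6:118890851-118891150: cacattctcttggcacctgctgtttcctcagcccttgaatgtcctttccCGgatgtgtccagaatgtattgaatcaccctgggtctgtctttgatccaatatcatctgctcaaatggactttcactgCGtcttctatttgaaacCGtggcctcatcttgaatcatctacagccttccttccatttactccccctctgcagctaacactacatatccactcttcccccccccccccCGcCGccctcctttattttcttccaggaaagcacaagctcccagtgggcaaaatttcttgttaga

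These stretches held 0, 1, 3, 1 and 5 CpG sites in the order printed, at a GC content of 46.7%, 42.0%, 46.0%, 51.7% and 48.7%. Self-similarity under a shift differed between the 8 highest windows. The stretch near *Gm17613* matched itself at 54.6% of positions when moved by 29 bases, that near *Stk31* at 46.9% when moved by 57 bases, *Ahnak* at 42.7% for 21 bases and *Muc4* at 40.7% for 84 bases. The stretches of the other 4 reached 37.7% (*Muc6*), 33% (*Fgfrl1*), 32.9% (*Col6a1*) and 32.6% (near *Gm17446*). The *Cacna1c* stretch reached 33.9% at its best shift of 46 bases. Shifts of 10 to 100 bases were compared, the median shift gave 24.5% to 27.8% in these 5 stretches, and this comparison was made after the sequences were seen. AHNAK and the mucins are proteins built of many internal repeats.

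The values that chose the members are given as a description. H3K9me2 over Input at day 4 in control cells had a median of 1.11 and reached 2.04 in the members, against a median of -0.01 over eligible windows. H3K9me3 over Input had a median of 0.595 and quartiles of 0.41 and 0.77, and 73 (1.97%) had H3K9me3 below the Input. The Input itself was low in the members, with a median of -0.62 against -0.30, and 3.18% of members lay above the eligible median of the Input. The rule subtracts the Input, and low Input values favour its first limit. A group of 687 windows met the H3K9me2 and Input limits but exceeded the H3K9me3 limit, and 363 windows failed through the Input limit alone.

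At the H3K9me2 limit, the nearest members, 24596 bases from *Ets1* and 82345 bases from *Rpl10-ps3*, lay 9.6e-05 above it, and the nearest windows outside, in *Sirpa* and 461829 bases from *Pik3r1*, lay 3e-05 and 4.3e-05 below. At the H3K9me3 limit, the members nearest *Dynlrb2* and *Cacna1i* lay 0.00097 and 0.0011 inside, and windows in *Sorcs2* and in *Cib4* lay 0.00015 and 0.00039 outside. At the Input limit, the members near *Olfr1160* and in *Atp8a2* lay 0.0031 and 0.0067 inside, and those in *Ino80d* and near *Nol4* 0.0074 and 0.0086 outside. The limits thus run through a continuous range of values.

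The day 8 libraries took no part in the choice, and H3K9me2 was high in the members there too. In control libraries the median log2 value of the members was 0.24 and 0.37, against -0.244 and -0.295 over eligible windows. In cKO libraries it was 0.344 and 0.035, against -0.29 and -0.27. Of the members, 42.7% and 62.6% in the control libraries and 57.4% and 36.0% in the cKO libraries exceeded the value that 10.0% of eligible windows exceed. The median H3K9me2 of the members, averaged over both day 8 control libraries, was 0.30 ± 0.09 (SD, n = 2 libraries).

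**Figure D1:**
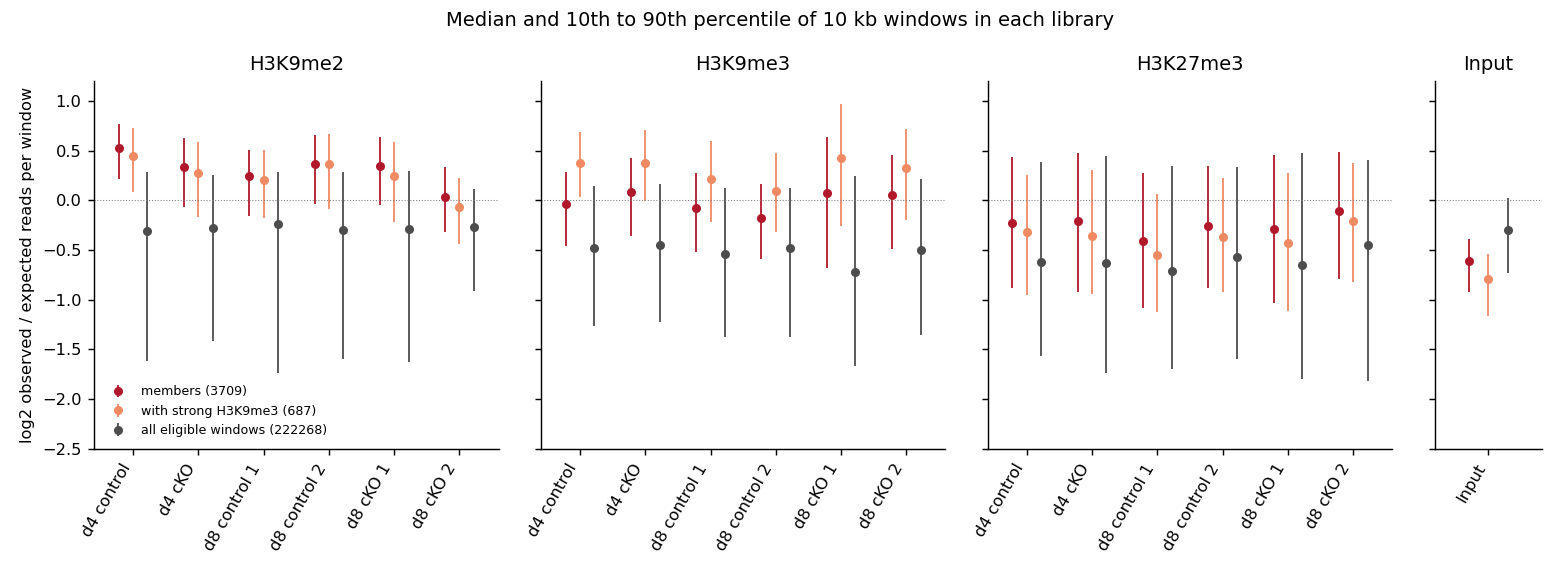
Median (points) and 10th to 90th percentile (bars) of the log2 observed over expected reads of 10 kb windows, in each library of each mark and in the Input, for members, for windows that exceeded the H3K9me3 limit and for all eligible windows. The day 4 control values and the Input chose the members; at day 8 the H3K9me2 medians of the members lay between 0.035 and 0.366, above those of eligible windows in all 4 libraries.

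Relative to the Input, 24.1% and 46.5% of the members were at least 2-fold higher for H3K9me2 in the day 8 control libraries, against 0.984% and 1.86% of eligible windows. This share was 42.5% and 8.9% in the cKO libraries, against 1.88% and 0.344%, and the lowest value belonged to cKO replicate 2. The Input library is shared with the rule, so these shares are not free of it. A member window held a median of 106 to 131 H3K9me2 reads per library, for which counting error alone gives an SD of 0.13 to 0.14 on the log2 scale.

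Before correction for GC content, the other marks were also above the genome's middle in these windows. H3K9me3 in the day 8 control libraries had medians of -0.08 and -0.18 in members, -0.54 and -0.49 over eligible windows, and 0.22 and 0.09 in the 687 windows that exceeded the H3K9me3 limit. H3K27me3 was -0.41 and -0.26 in members against -0.71 and -0.57. The 168 members that held a gene start had the highest H3K27me3, with medians of -0.17 and 0.00, whereas the 1762 members between genes had -0.43 and -0.27. Values were also taken relative to the median of eligible windows of equal GC content. On that scale the medians over all members were -0.07 and 0.023 for H3K27me3, near that of eligible windows, and 0.532 and 0.463 for H3K9me3.

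The plot of values by library shows all marks above the eligible medians and the Input below. Within the members, windows with more H3K9me2 also had more H3K9me3. The 927 members with the highest day 8 control H3K9me2 had H3K9me3 medians of 0.06 and -0.07 in the same cells, and the 928 with the lowest had -0.34 and -0.40. They differed little in GC content (46.7% and 45.3%), 60.4% and 44.7% overlapped a gene, and high-copy sequence took a median of 0.66% and 3.26% of their 31-mers.

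By base composition the members were GC-rich. Their median GC content was 46.0%, with 41.7% and 50.7% at the 10th and 90th percentiles, against 41.4% over eligible windows. No member came from the 2283 windows of 32% to 34% GC or the 12494 of 34% to 36%. The share of members rose to 5.23% at 48% to 50% before it fell to 2.03% at 54% to 56%. The Input, which the rule subtracts, had a median of -0.073 at 32% to 34% GC and -0.437 at 48% to 50%. Day 4 control H3K9me2 had -0.529 and -0.618 in these bins. The GC content of the members is thus not free of the rule, and the part of the Input in it was not tested. At equal GC content the members were poor in CpG: at 46% to 48% GC their median was 98 CpG sites per window against 118 in eligible windows, and at 52% to 54% it was 129 against 166.

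Exact 31-mers of high copy number were scarce in the members. Diverged copies of repeats can escape this count, and the comparison was not matched for GC content. Sequence present in at least 50 copies in the genome made up a median of 1.32% of the sampled 31-mers of a member and 3.03% of those of an eligible window. It made up 12.6% in the 5660 windows with strong H3K9me3 that stayed below the H3K9me2 limit. The windows with both marks, at 1.17%, resembled the members. Single-copy sequence made up 96.5% of the 31-mers of members, against 93.0% of those of eligible windows.

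**Figure D2:**
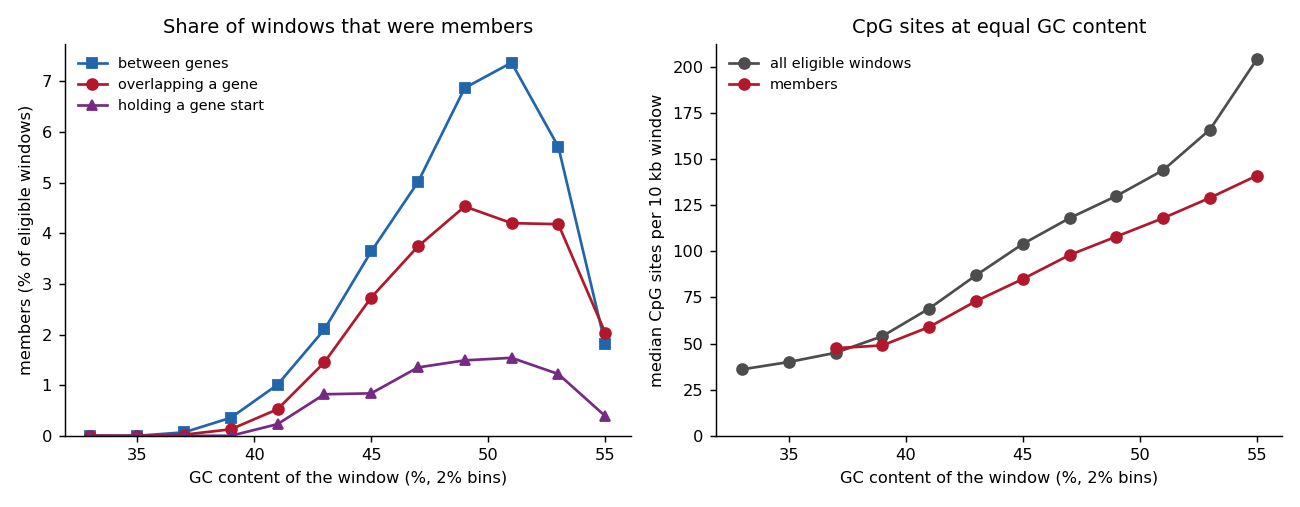
Left, share of eligible windows that were members (%) by GC content in 2% bins, for windows between genes, overlapping a gene and holding a gene start; it peaked at 7.37% between genes, 4.53% in genes and 1.54% at gene starts. Right, median CpG sites per window of members and of eligible windows in the same bins; members had fewer from 38% GC upward.

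Members lay both inside and outside genes. Of the 3709, 1947 (52.5%) overlapped one of 23653 annotated protein-coding or lincRNA genes, against 48% of eligible windows, and 30.4% held an exon, against 31%. Gene starts were rare: 168 members (4.53%) held one, against 8.41%. Among windows of 44% to 48% GC, 3.57% were members. Within that range the share was 4.73% of windows wholly inside introns, 4.16% of windows between genes, 2.5% of windows with an exon and 1.08% of windows with a gene start. The member share of genic windows was thus above that of intergenic windows over all GC contents (1.82% against 1.52%) and below it in this GC range (3.16% against 4.16%).

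By chromosome the share ranged from 0.726% on chromosome 10 to 2.92% on chromosome 7. On the X chromosome, which the rule leaves out, 19 of 9140 windows (0.208%) met the same limits, at a median GC content of 38.3%. The last 20% of the chromosomes' length held 29.3% of members and 20.9% of eligible windows, and the first 20%, where the mouse centromeres lie, held 10.0% and 17.3%. For the windows that exceeded the H3K9me3 limit the last 20% held 44%. Among windows of 44% to 48% GC the member share was 3.57% at the distal end, equal to that of all windows of this GC content, and 2.6% at the centromeric end.

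**Figure D3:**
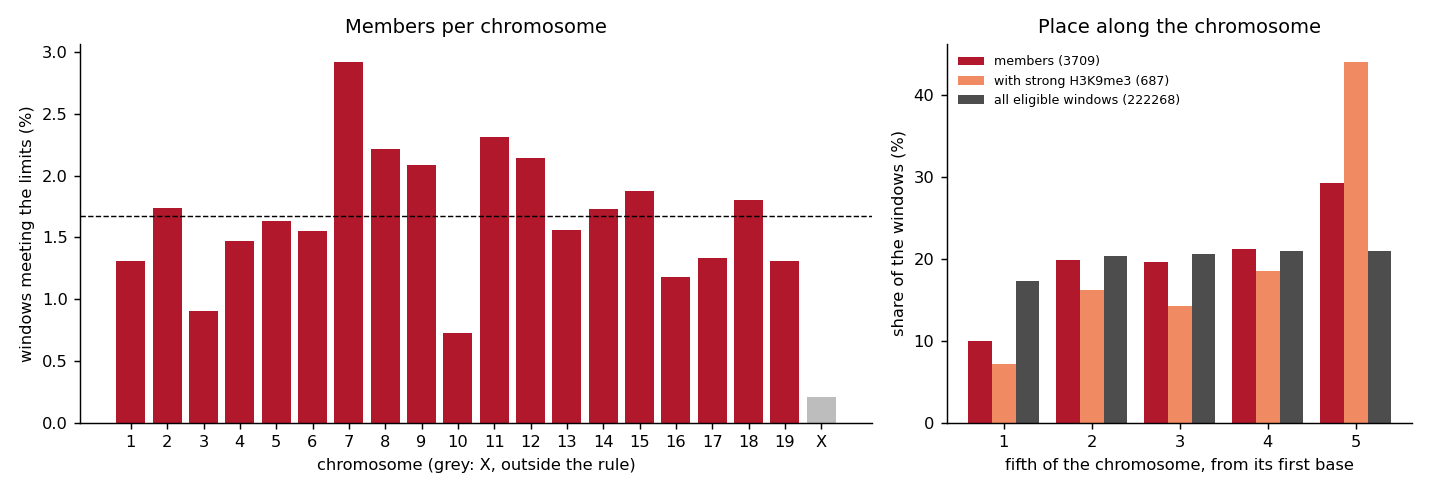
Left, share of windows that met the limits (%) on each autosome (red) and on X (grey), with a dashed line at 1.67% for all autosomes. Right, share of members, of windows that exceeded the H3K9me3 limit and of eligible windows in each successive 20% of the chromosome length; the last bin holds 29.3% of members and 20.9% of eligible windows.

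Most members stood alone. There were 2890 single windows, 306 runs of 2, 54 of 3, 7 of 4, 1 of 5 and 2 of 6 adjacent members, so 22.1% of members touched another. The longest runs lay in *Sorcs2*, which encodes a sorting receptor (chromosome 5, 36630001 to 36690000), and near *Gpr123* (chromosome 7, 146960001 to 147020000). Of the runs of 4, the first in chromosome order lay in *Kif1a*, a kinesin of neurons (chromosome 1, 94940001 to 94980000). Median H3K9me2 in the day 8 control libraries was 0.15 and 0.49 over the *Sorcs2* run, 0.436 and 0.555 over that near *Gpr123* and 0.20 and 0.55 over *Kif1a*.

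The 1 Mb block with most members was on chromosome 1 from 94000001 to 95000000, where 23 of 99 eligible windows were members (23.2%). They lay in or near *Kif1a* (5), *Hdac4* (4), *Otos*, *Ndufa10* and *Gpc1* (3 each), *Ankmy1*, *Gpr35* and *Olfr1412*. Blocks chosen after their counts were seen lay at *Sorcs2* (chromosome 5, 22 of 96), at *Shank2* and *Ano1* (chromosome 7, 17 of 96) and around clusters of Iroquois homeobox genes, transcription factors of embryonic patterning. In the block with *Irx3* and *Irx5* (chromosome 8), 17 of 99 windows were members. They lay in or near *Irx5* (6), *D230002A01Rik* (5), *4933436C20Rik* (3), *Irx3* (2) and *Fto* (1). In the block with *Irx1* and *Irx2* (chromosome 13) 16 of 96 were members, in or near *Irx2* (7), *Irx1* (5) and *Rpl9-ps4* (4). Blocks on chromosome 2 had as many, with 16 of 81 around *Edn3* and 16 of 100 around *Sardh* and *Rxra*.

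Member windows overlapped 1158 of 21662 genes, 786 of them in 1 window only. The genes with most members, named after their counts were seen, were *Fgfr2* (20 of 291 windows of its annotated span), *Sorcs2* (18 of 39), the acid-sensing channel gene *Accn1* (17 of 108) and *Gm20388* (16 of 426). Long annotated spans have more windows to count, and a window over several genes was counted for each. The span of *Fgfr2* ran from 137305965 to 140315033 on chromosome 7, with 6.87% members. That of *Gm20388* ran from 122434741 to 126869622 on chromosome 8, with 3.76%. Whether the members there belong to these genes or to others within the spans was not tested. By share of windows, *Sorcs2* (46.2%), the metalloprotease gene *Adamts18* (43.8%), the sodium-calcium exchanger gene *Slc8a3* (6 of 15) and *Tg*, which encodes thyroglobulin (36.8%), were among the highest of the 40 genes with most members. Others of the list were *Atp2b2*, a calcium pump (10 of 31), *Dscaml1*, an adhesion protein (10 of 34), *Shank2*, a postsynaptic scaffold (11 of 42), and *Cacna1c*, a calcium channel (10 of 61).

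Gene families picked by name prefix differed in their share. Of 2556 windows over ion channel and neurotransmitter receptor genes, 107 (4.19%) were members, in 40 of 170 genes, against 1.82% of all genic windows. Of 132 windows over keratin genes, 16 (12.1%) were members, in 14 of 97 genes. The median GC content was 41.1% for the former and 45.9% for the latter. Neuronal adhesion genes had 31 of 2532 windows (1.22%) at a GC content of 38.6%, Zfp genes 10 of 1282 (0.78%) and olfactory receptor genes 9 of 1196 (0.753%). No member lay in the 492 windows of vomeronasal receptor genes, the 110 of ribosomal protein genes or the 34 of histone genes. The ribosomal and histone windows are too few to be told apart from the share of 1.82%. The median GC content was 43.5% for Zfp, 37.6% for olfactory receptor and 37.7% for vomeronasal receptor genes. Among all genic windows of 36% to 38% GC, 0.022% were members. These shares were not matched for GC content.

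Over all genes, 5.35% overlapped a member. In the H3K9 methylation machinery 1 of 21 measured genes had a member, *Kdm4b*, which encodes a demethylase of H3K9me3 and H3K9me2, with 1 of its 9 windows. The median H3K9me2 over these 21 genes in the day 8 control libraries was -1.64 and -1.45, against -0.244 and -0.295 over eligible windows. *Trim28*, the corepressor that recruits SETDB1, was lowest at -3.37 and -3.14. The G9a gene *Ehmt2* had -3.12 and -2.67, and its partner *Ehmt1* had -0.83 and -0.86.

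Of 18 measured germline genes, 6 pluripotency genes and 5 developmental genes, 0 overlapped a member, and lists of this size cannot be told apart from the share of 5.35% over all genes. Germline genes had medians of -0.66 and -0.52, and the highest, *Mov10l1*, which encodes an RNA helicase of the piRNA pathway, reached 0.265 and 0.142. Pluripotency genes had -2.88 and -2.87, with *Sox2* at -3.51 and -3.03. Developmental genes had -2.65 and -1.83. The medians over eligible windows were -0.244 and -0.295.

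The 8 members with the highest H3K9me2 over both day 8 control libraries, at least 1 Mb apart,, had values between 0.67 and 1.17 in these libraries.
The highest lay in *Ahnak* (ENSMUSG00000069833, chromosome 19, 9080001 to 9090000), wholly inside coding exon sequence. It had 1.03 and 1.11 in the control libraries, from 230 and 179 reads, and 1.43 and 1.10 in the cKO libraries, from 258 and 239 reads, with an Input of -0.73. The cKO values thus reached those of the controls. This window held 18 CpG sites, and its H3K27me3 was -2.32 and -1.79 in the controls. The window in *Muc4* (ENSMUSG00000079620, chromosome 16, 32750001 to 32760000), a mucin gene, also lay mostly in coding sequence (7190 bases). Its H3K9me2 was 0.97 and 1.15 in control and 1.16 and 0.69 in cKO libraries.

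Another mucin gene, *Muc6* (ENSMUSG00000048191, chromosome 7, 148820001 to 148830000), had 0.67 and 1.12 in control and 1.03 and 0.47 in cKO libraries. *Col6a1* (ENSMUSG00000001119, chromosome 10, 76170001 to 76180000), a chain of collagen VI, had 0.79 and 1.17 in control and 0.85 and 0.51 in cKO libraries, and lay in a run of 4 members. The window over the end of *Fgfrl1* (ENSMUSG00000008090, chromosome 5, 109130001 to 109140000), which encodes a receptor-like binder of fibroblast growth factors, had 0.79 and 1.02 in control and 0.66 and 0.58 in cKO libraries. Of these 3 windows, *Fgfrl1* alone had both cKO libraries below both controls.

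The other 3 lay between genes. A window on chromosome 14 (121090001 to 121100000), 48574 bases from *Gm17613*, had 1.08 and 1.01 in control and 0.99 and 0.85 in cKO libraries. A window on chromosome 14 (103220001 to 103230000), 147437 bases from *Gm17446*, had 1.01 and 1.02 in control and 1.03 and 0.67 in cKO libraries. Its H3K9me3 was 0.83 and 0.57 in the controls. A window 501 bases from *Stk31*, a kinase gene of the testis (chromosome 6, 49420001 to 49430000), had 0.94 and 0.83 in control and 1.03 and 0.59 in cKO libraries, while the 8 windows over the gene itself had medians of -0.48 and -0.76 in the controls.

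The 4 members with the lowest day 8 control H3K9me2 had an Input near the limit, from -1.48 to -1.34, and values between -1.38 and -0.89. They lay 636392 bases from *Csmd3* (chromosome 15, 49260001 to 49270000), at the start of *Dnajc5b* (chromosome 3, 19400001 to 19410000), over *Gm6721* (chromosome 10, 85270001 to 85280000) and 82543 bases from *Gm10800* (chromosome 2, 98590001 to 98600000). These windows held 41 to 79 H3K9me2 reads in each day 8 control library, fewer than most members. At day 4 their control values, which chose them, were -0.37 to -0.14.

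Deletion of *Dnmt1* was then compared with the control at day 8. For H3K9me2 the members moved in opposite directions in the pairs of libraries that share a number. Their median change (cKO minus control, log2) was 0.105 for replicate 1 and -0.325 for replicate 2, against 0.0 and 0.034 over eligible windows. The difference of the library means had a median of -0.113 ± 0.167 (SE from the spread of library medians, n = 2 and 2), so it was smaller than its error. Without cKO replicate 2 it was 0.045, and the sign turned. Both cKO libraries were lower than both controls in 932 members (25.1%) and higher in 201 (5.42%). Over all windows tested these shares were 21.0% and 19.7%. cKO replicate 1 taken alone lay above both controls in 38.3% of members and below both in 27%, against 33.7% and 34.9% of all windows.

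Base composition moved with this result, and its part in it was not tested beyond a correction. Each library was also expressed relative to its median among eligible windows of the same GC content. The median H3K9me2 of the members became 0.78 and 0.73 in control and 0.59 and 0.26 in cKO libraries. The change was then -0.19 for replicate 1 and -0.488 for replicate 2. Both cKO libraries were lower than both controls in 2248 members (60.6%) and higher in 42 (1.13%), against 20.8% and 18.3% of eligible windows. Without cKO replicate 2, cKO replicate 1 was lower than both controls in 62.6% of members, against 38.2% of eligible windows. The 687 windows that exceeded the H3K9me3 limit had changes of -0.339 and -0.665 on the same scale, and 0.019 and -0.442 before the correction.

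**Figure D4:**
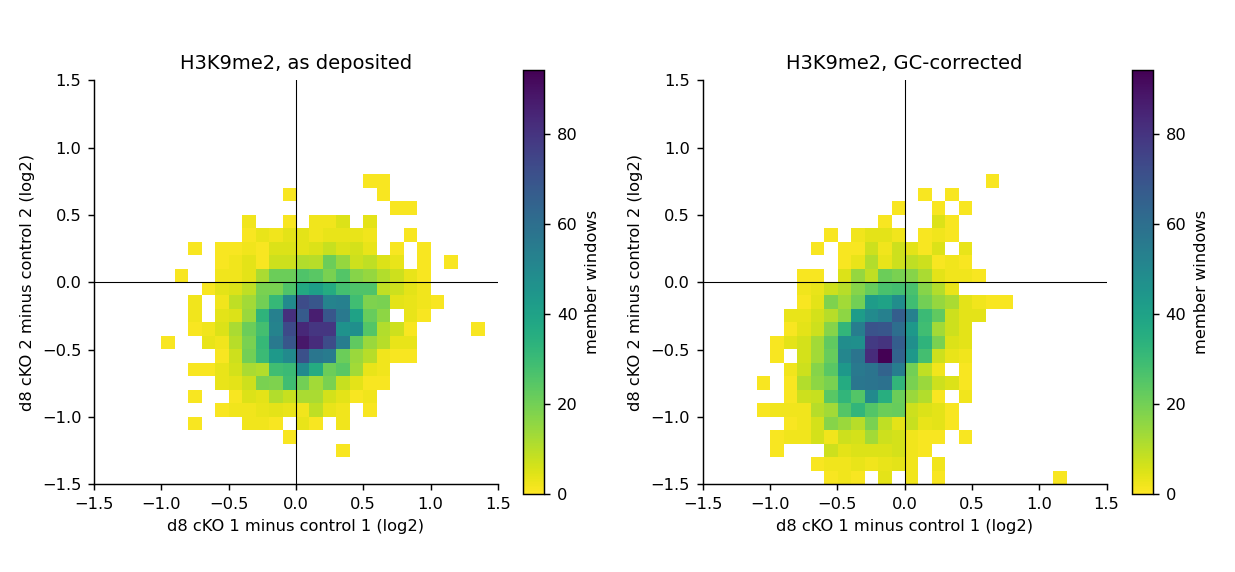
Change of H3K9me2 (cKO minus control, log2) in the replicate 1 pair against the replicate 2 pair at day 8, for the 3709 members in bins of 0.1, as deposited (left) and relative to eligible windows of equal GC content (right). Values beyond the axes are placed in the outermost bins. The share of members lower in both pairs was 31.3% on the left and 75.1% on the right, against 27.8% and 28.7% of eligible windows.

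limma called 0 windows for H3K9me2 among all 254389 tested (0.0%), and so 0 members. Without adjustment, 51 members (1.38%) had a p under 0.05, 6 higher and 45 lower, against 7.03% of all windows. Relative to windows of equal GC content the count was 509 members (13.7%), 2 higher and 507 lower, against 5.78% of eligible windows. limma-voom on recovered reads also called 0.0% of windows, with 223 members (6.01%), 21 higher and 202 lower, at an unadjusted p-value under 0.05, against 10.5% of all windows. The lowest adjusted p-value of a member was 0.692 by limma and 0.465 by limma-voom. Without cKO replicate 2, limma-voom called 93 windows, 1 of them a member, which was higher. On simulated reads limma called 12 of 100 windows changed 2-fold and 100 of 100 changed 4-fold for this mark. These reads were drawn per window with counting error only, whereas the real values are means over tiles and libraries may differ further. The rates therefore need not hold for the real test, and its count of 0 says little about changes of 2-fold or less.

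By the rule for naming, 3 members with higher and 3 with lower H3K9me2 are described, none of which passed the threshold. The largest loss was 77519 bases from *Pcdh15* (chromosome 10, 74190001 to 74200000), with -0.44 and -0.09 in control and -1.23 and -1.10 in cKO libraries, a change of -0.90 ± 0.22 (SE, limma adjusted p = 0.692). From 160 control and 105 cKO reads the ratio scaled to library size was 0.604 (exact binomial 95% limits 0.468 to 0.778, counting error only). A window 521708 bases from *Api5* (chromosome 2, 94800001 to 94810000) had 0.14 and 0.13 in control and -0.61 and -0.69 in cKO libraries. In both windows the groups did not overlap, which the choice for a large difference favours. Both cKO libraries were below both controls in 25.1% of members and 21.0% of all windows.

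The third lay in an intron of *Cacna1c* (ENSMUSG00000051331, chromosome 6, 118890001 to 118900000), whose sequence is printed above. It had 0.55 and 0.62 in control libraries (160 and 124 reads) and 0.01 and -0.32 in cKO libraries (95 and 90 reads), a change of -0.74 ± 0.22 and a read ratio of 0.6 (0.496 to 0.725). H3K9me3 went the other way in this window, with 0.54 and -0.02 in control and 1.27 and 0.67 in cKO libraries.

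H3K9me2 was higher in an exon-bearing window of *Kdm4b* (ENSMUSG00000024201, chromosome 17, 56510001 to 56520000), with -0.55 and -0.26 in control and 0.31 and 0.33 in cKO libraries. The change of 0.72 ± 0.21 (limma adjusted p = 0.692) became 0.11 relative to windows of equal GC content, which is 53.6% here. The *Dnajc5b* window had -1.28 and -1.06 in control and -0.64 and -0.32 in cKO libraries. A window 66929 bases from *Rpl10-ps3* (chromosome 9, 50220001 to 50230000) had -0.96 and -0.99 in control and -0.30 in both cKO libraries. The latter 2 kept changes of 0.70 and 0.51 after the correction. Without cKO replicate 2 the 3 gains were 0.71, 0.53 and 0.68, and the losses near *Pcdh15*, near *Api5* and in *Cacna1c* were -0.97, -0.75 and -0.57.

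H3K9me3 was higher in cKO than in control cells over the members in both pairs. The median change was 0.156 and 0.238, against -0.125 and 0.024 over eligible windows. The difference of means was 0.182 ± 0.05 (SE, n = 2 and 2), and without the shallow library of cKO replicate 1 it was 0.183. Both cKO libraries were higher than both controls in 1606 members (43.3%) and lower in 416 (11.2%), against 20.4% and 24.9% of all windows. cKO replicate 2 alone exceeded both controls in 58.7% of members and 39.3% of all windows. Relative to windows of equal GC content the changes were 0.162 and 0.022, and 28.5% of members were higher and 17.2% lower in both cKO libraries, against 22.3% and 19.9% of eligible windows. On that scale cKO replicate 2 alone exceeded both controls in 35.3% of members, against 36.1%.

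limma called 0 windows for H3K9me3 (0.0% of 254453), and 466 members (12.6%), 401 higher and 65 lower, had an unadjusted p-value under 0.05, against 11.3% of all windows. limma-voom called 1.65% of all windows and 135 members (3.64%), 126 of them higher. Its median change was 0.224 over members and 0.008 over all windows, and 0.186 and 0.018 without the shallow library. At an unadjusted p-value under 0.05 limma-voom had 1027 members (27.7%), against 18.4% of all windows, and limma after GC correction 389 (10.5%), against 10.5%.

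Gains of H3K9me3 are described for 2 members. A window 32713 bases from *Cplx2*, a regulator of synaptic vesicle release (chromosome 13, 54430001 to 54440000), had -1.27 and -0.78 in control and 0.49 and -0.04 in cKO libraries. The change was 1.25 ± 0.29 with an adjusted p of 0.41 by limma and 0.0139 by limma-voom (0.0455 without the shallow library). A window with exons of *Loxhd1*, a gene of inner ear hair cells (ENSMUSG00000032818, chromosome 18, 77610001 to 77620000), had -0.41 and -0.43 in control and 1.03 and 0.22 in cKO libraries. From 143 control and 179 cKO reads the ratio was 1.9 (1.52 to 2.38), and the change was 1.04 ± 0.3 with an adjusted p of 0.41 by limma and 0.00575 by limma-voom (0.0475 without the shallow library). Without that library the changes were 0.99 near *Cplx2* and 0.64 at *Loxhd1*. In both windows the groups did not overlap, which the choice for a large difference favours. Both cKO libraries were above both controls in 43.3% of members and 20.4% of all windows.

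H3K9me3 was lower over *Gm17421* (ENSMUSG00000090726, chromosome 12, 114600001 to 114610000), with 0.45 and 0.25 in control and -1.22 and -0.59 in cKO libraries. Its change was -1.25 ± 0.28 with an adjusted p of 0.41 by limma and 0.0206 by limma-voom, and -0.94 with 0.019 by limma-voom without the shallow library. Windows 67176 bases from *A1bg* (chromosome 15, 60820001 to 60830000) and 186978 bases from *1700018B24Rik* (chromosome 3, 48600001 to 48610000) changed by -1.14 ± 0.29 and -1.02 ± 0.39 and passed neither test, and without the shallow library they changed by -0.8 and -0.4. The shallow cKO library held 15, 16 and 7 reads in these windows.

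H3K27me3 was slightly higher over the members, by 0.124 and 0.125, against 0.045 and 0.065 over eligible windows. The difference of means was 0.124 ± 0.119 (SE, n = 2 and 2), about its own error. It was 0.051 without control replicate 1, 0.053 without cKO replicate 2, 0.19 without control replicate 2, 0.198 without cKO replicate 1 and 0.03 when centred on eligible medians. Both cKO libraries were higher in 1214 members (32.7%) and lower in 306 (8.25%), against 24.9% and 17.4% of all windows. At equal GC content the changes were 0.012 and 0.051, and the shares were 23.7% and 15.4%, against 18.5% and 25.9%. limma called 0.0% of 254392 windows and 199 members (5.37%) had an unadjusted p-value under 0.05, 167 higher and 32 lower, against 11.3%. This share was 4.96% after GC correction, against 13.7%, and 11.5% by limma-voom, against 14.3%. limma-voom called 1.5% of all windows and 16 members (0.431%), all higher. With the replicate block limma called 2472 of 254392 windows, 392 higher and 2080 lower. Of these 2 were members, both lower. With GC correction and the block it called 8299 of 222268 windows, 615 higher and 7684 lower. Of these 16 were members, 3 higher and 13 lower.

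The H3K27me3 gains with the largest size lay between genes. A window 77808 bases from *Zfp703*, a transcriptional repressor gene (chromosome 8, 28000001 to 28010000), had -0.62 and -0.27 in control and 0.44 and 0.47 in cKO libraries, a read ratio of 1.76 (1.46 to 2.14) and an adjusted p of 0.208 by limma and 0.0152 by limma-voom. A window 197753 bases from *Fndc3a* (chromosome 14, 72730001 to 72740000) had -1.01 and -0.53 in control and -0.20 and 0.39 in cKO libraries, with 0.273 by limma and 0.0383 by limma-voom. A window 138201 bases from *Dnahc5*, an axonemal dynein gene (chromosome 15, 28540001 to 28550000), had -1.59 and -0.82 in control and -0.74 and 0.16 in cKO libraries and passed neither test.

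The 3 largest losses lay in introns. *Rxra* (ENSMUSG00000015846, chromosome 2, 27570001 to 27580000), which encodes a retinoid receptor, had -0.71 and -0.95 in control and -2.16 and -1.83 in cKO libraries, a change of -1.16 ± 0.24 (limma adjusted p = 0.152). *Tbc1d22a* (ENSMUSG00000051864, chromosome 15, 86310001 to 86320000) had -1.35 and -1.53 in control and -2.87 and -2.35 in cKO libraries, and *Mad1l1*, a gene of the mitotic checkpoint (ENSMUSG00000029554, chromosome 5, 140530001 to 140540000), had -1.63 and -0.95 against -2.17 and -2.47. H3K9me2 in these 3 windows was 0.24 to 0.86 in control and -0.05 to 0.88 in cKO libraries.

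**Figure D5:**
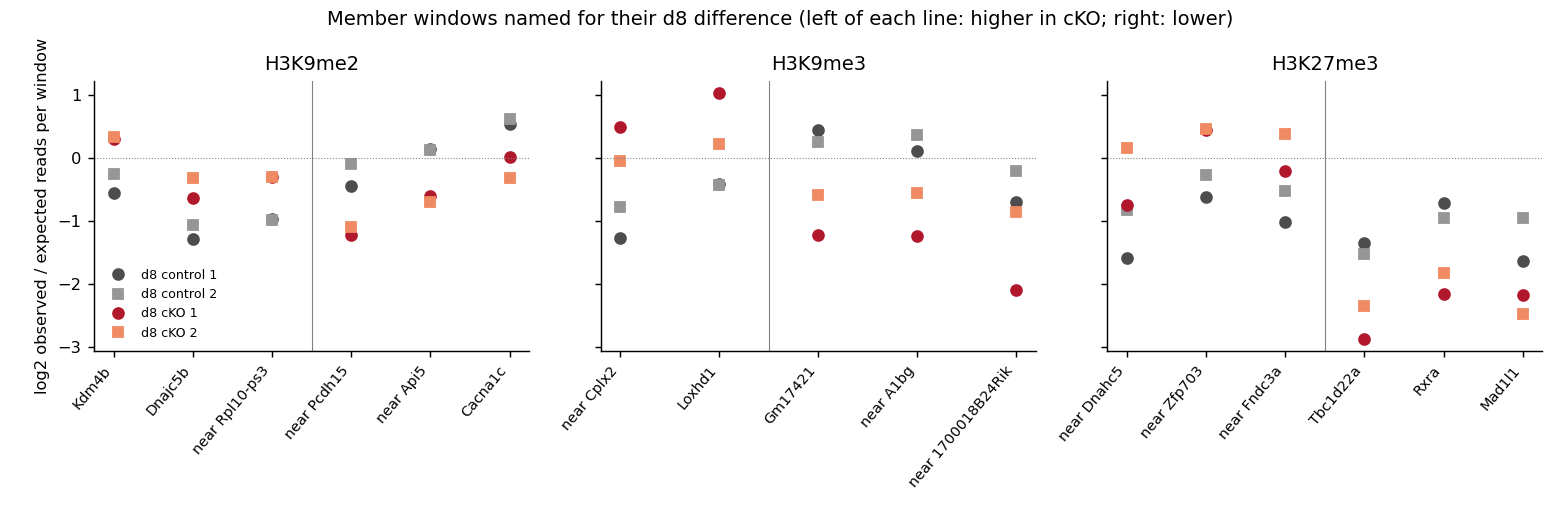
Log2 observed over expected reads of each mark in the 4 day 8 libraries, for the member windows described for their difference between cKO and control (6 for H3K9me2, 5 for H3K9me3 and 6 for H3K27me3), labelled by the gene they overlap or lie near. Each point is 1 library; windows left of the grey line were higher in cKO and those right of it lower, and none passed the adjusted threshold of 0.05 in limma.

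At day 4 the changes share the control libraries that chose the members, which are high for H3K9me2 and limited for H3K9me3 by that choice. Choosing windows for high control H3K9me2 favours a lower value in cKO, so that direction cannot be read as an effect of the knockout. H3K9me2 changed by a median of -0.197, with 81.9% of members lower in cKO, against 45.5% of eligible windows. H3K9me3 changed by 0.119 and H3K27me3 by 0.022. Over eligible windows the medians were 0.034, 0.025 and -0.016. No replicates existed at day 4, and no test was made.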

How the data were processed

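ChIP-seq of 3 histone marks and 1 Input was analysed in 19 libraries. Per the methods, reads were aligned with Bowtie2 (version 2.2.9 in the submitters' processing notes), kept at a mapping quality of at least 20 and counted in tiles. The deposited values, made by the authors, are log2 observed over expected reads per tile, and tiles without reads hold a floor of 0.9 read. The methods speak of 1 kb tiles and of a single measurement, whereas the table has 2 kb tiles and 2 libraries per group at day 8. Coordinates are those of NCBIM37.

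Tile values were averaged per 10 kb window. Whole reads were recovered from the values (100.0% of low values whole within 0.02), and on them limma-voom called 0, 4203 and 3824 windows for H3K9me2, H3K9me3 and H3K27me3. The main test was limma 3.58.1 in R 4.3.3 without an intensity trend, 2 against 2 day 8 libraries over all windows, at an adjusted p (Benjamini-Hochberg) of 0.05. It was tested on simulated Poisson reads, drawn per window rather than per tile and without spread between libraries beyond counting. The rates that follow hold for that setting and need not hold for the real libraries. Of 100 windows changed 2-fold, limma called 12, 0 and 0 for H3K9me2, H3K9me3 and H3K27me3, and of 100 changed 4-fold 100, 56 and 96, with 58, 0 and 16 false calls among all windows, each in windows of 20 reads or fewer on average. limma-voom called 96, 93 and 92, then 100 each, with 5, 18 and 7 false calls. An exact permutation test of 2 against 2 cannot go below 0.333. GC content, CpG and copy number of 31-mers (1 in 32 sampled, high copy from 50) came from the reference genome. Other steps used Python 3.11.15, pandas 2.3.3 and scipy 1.17.1.

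A window held 32 to 131 reads per ChIP library at the members' median. Intervals cover counting error only and do not allow for the choice of windows by the size of their difference. The members, lists and tests were chosen with earlier results of these data known. Named were the 8 highest and 4 lowest members by day 8 control H3K9me2, the 3 largest differences per mark and direction with both pairs agreeing in sign, at least 1 Mb apart, the 4 longest runs, the 1 Mb block with most members and the windows next to each limit, with the genes there. Alternatives covered the block, trend, voom, centring, GC content, the limits and left-out libraries. Results of 2 named genes are not reported here.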

Additional observations from a re-analysis of the deposited data

Results flagged for a closer look

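In 9 of the 18 windows named for their day 8 change, the day 4 change (cKO minus control, log2) had the opposite sign to both day 8 pairs. Day 4 has 1 library per group, the day 4 control chose the members, and the difference between the days was not tested. For H3K9me2 the day 4 change was -0.17 at *Kdm4b*, -0.43 at *Dnajc5b* and -0.12 near *Rpl10-ps3*, where day 8 values were higher in cKO. For H3K9me3 it was -0.03 near *Cplx2*, against a gain at day 8, and 0.24 at *Gm17421* and 0.43 near *1700018B24Rik*, against losses. For H3K27me3 it was -0.07 near *Dnahc5* and -0.05 near *Zfp703*, against gains, and 0.04 in *Rxra*, against a loss.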

How the results depend on the processing

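Called windows over the genome depended on the fit. For H3K9me2, limma called 0, and leaving out 1 library gave 0 to 22231, the latter without cKO replicate 1 and with 1 member. limma-voom without cKO replicate 2 gave 93. For H3K9me3, 0 became 16 with the replicate block, 735 with an intensity trend (16 members), 4203 with limma-voom (135 members), 5030 with limma-voom without cKO replicate 1 (100 members), 22 after GC correction, 906 after GC correction with the replicate block (8 members), and 0 to 26711 when 1 library was left out, with 88 without cKO replicate 1 and 26711 without cKO replicate 2 (215 members). For H3K27me3, 0 became 2472 with the replicate block (2 members, both lower), 1952 with the trend, 3824 with limma-voom, 8299 after GC correction with the replicate block (16 members, 3 higher and 13 lower), and 347 to 6079 when 1 library was left out. Replicate numbers were shared by 2 pairs only, and correlations of deviations of 0.209, 0.089 and 0.24 for H3K9me2, H3K9me3 and H3K27me3 do not establish pairing.

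The median H3K9me2 change of members (-0.113) was -0.343 after GC correction, and single pairs gave -0.325 to 0.105. It was 0.045 without cKO replicate 2, so the sign depended on that library. The H3K9me3 change (0.182) was 0.282 centred on eligible medians, 0.08 after GC correction, 0.156 to 0.238 in single pairs, 0.13 to 0.233 with 1 library left out and 0.102 in the 67 windows past an H3K9me2 limit of 1.5. The H3K27me3 change (0.124) was 0.051 to 0.198 with 1 library left out. The H3K9me2 level (0.302) was 0.43 at that limit, 0.423 at an Input limit of -0.5, 0.759 after GC correction and 0.241 to 0.366 in single libraries. The share at least 2-fold above the Input (35.3%) was 91.2% at 1.5-fold and 19% at an Input limit of -0.5. The number of members (3709) was 994 at an Input limit of -0.5 and 1365 at an H3K9me3 limit of 0.5. The causes were not tested. Of 48 alternatives for named windows, 6 passed the threshold, each with limma-voom, and 0 reversed. The limma-voom alternatives were judged by the threshold alone and could not reverse. For the others, the windows had been named for large changes with both pairs agreeing in sign, which favours a kept sign. The count of 0 is therefore no measure of stability. The GC correction and the fits that leave 1 library out of limma-voom, of the median changes or of the named windows were in part chosen after seeing the data.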
